A study of Mus musculus with 4 samples.

Results

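Small leucine-rich proteoglycans and tendon genes were followed through RNA-seq libraries of ageing mouse muscle. The set held 10 genes, chosen by symbol from 40137 gene units counted in the files: the proteoglycan genes Dcn, Bgn, Lum, Fmod, Prelp and Ogn, and the tendon genes Scx, Tnmd, Thbs4 and Comp. All 10 were found as gene units of their own, and all 10 had enough counts to be tested, a mean of 10 or more per library. The tissue was thigh skeletal muscle of wild-type males of the inbred mouse strain C57BL/6J, with no treatment named, at 28 months of age (3 libraries), set against 18 months (1 library). Its stated purpose was a check on alternative splicing found with exon arrays, which were not analysed here. Reads had been counted per exonic bin, a piece of exon between annotated boundaries, and bins were summed per gene. Totals ran from 67279205 to 76163175 counts at 28 months and were 65780464 counts at 18 months.

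Small leucine-rich proteoglycans are secreted proteins with a curved stack of leucine-rich repeats that binds collagen fibrils, and most carry dermatan, chondroitin or keratan sulfate chains. They govern the thickness and spacing of collagen fibrils, and decorin and biglycan also bind TGF-beta. In muscle they are made mainly by fibroblasts of the connective tissue layers. Tendon cells make fibromodulin, tenomodulin, thrombospondin-4 and cartilage oligomeric matrix protein, and the transcription factor scleraxis directs tendon cell identity.

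RefSeq promoter sequences (build GRCm38.p6) were at hand for 6 of the 10 genes. The windows of Tnmd, highest in 28-month replicate 2, and of Bgn, lowest there, are not shown. The 4 windows shown are those of Prelp and Ogn, also highest in that replicate, and of Fmod and Thbs4, which were not. Each runs 5′ to 3′ in the direction of the gene, from 250 to 16 bases before the RefSeq start, and capitals mark E-boxes (CANNTG, the same on either strand), the kind of site that scleraxis and other basic helix-loop-helix factors bind.
Prelp, chr1:133921417-133921651, minus strand: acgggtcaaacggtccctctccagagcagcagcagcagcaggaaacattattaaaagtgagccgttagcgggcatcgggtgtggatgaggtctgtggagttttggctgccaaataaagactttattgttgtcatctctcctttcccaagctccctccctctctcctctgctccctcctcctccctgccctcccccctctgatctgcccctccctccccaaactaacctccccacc
Ogn, chr13:49607765-49607999, plus strand: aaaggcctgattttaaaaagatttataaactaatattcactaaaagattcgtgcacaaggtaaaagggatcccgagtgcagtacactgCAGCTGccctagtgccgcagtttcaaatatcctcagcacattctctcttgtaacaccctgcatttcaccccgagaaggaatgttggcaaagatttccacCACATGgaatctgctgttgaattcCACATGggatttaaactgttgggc
Fmod, chr1:134037004-134037238, plus strand: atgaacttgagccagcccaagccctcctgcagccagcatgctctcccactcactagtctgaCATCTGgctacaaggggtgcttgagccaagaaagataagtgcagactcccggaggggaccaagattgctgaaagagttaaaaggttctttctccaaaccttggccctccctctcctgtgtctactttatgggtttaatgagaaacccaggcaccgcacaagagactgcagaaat
Thbs4, chr13:92794834-92795068, minus strand: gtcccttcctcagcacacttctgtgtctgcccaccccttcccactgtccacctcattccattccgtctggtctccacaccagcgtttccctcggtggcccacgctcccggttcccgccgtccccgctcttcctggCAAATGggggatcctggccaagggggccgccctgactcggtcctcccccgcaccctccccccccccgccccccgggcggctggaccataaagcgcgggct

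The Ogn window held 3 E-boxes, the Fmod and Thbs4 windows 1 each and the Prelp window 0. Of the windows not shown, that of Tnmd held 0 and that of Bgn 1. Over 32851 promoter windows of the same length, 64.1% held an E-box, at a mean of 1.09 per window. The Ogn window also held the TATA box letters TATAAA, which 11.9% of all windows hold on either strand. Its 2 matches lie on opposite strands and overlap in a single stretch, tttataaa. None of the 4 held the Egr site GCGNGGGCG, which 4.18% hold. These matches describe the windows and are not evidence of binding.

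The libraries were muscle, and 28-month replicate 2 stood apart from its group. Counts are given as CPM, counts relative to library size after TMM scaling, unless another scale is named. Summed markers of muscle fibres came to 212482, 109732 and 220287 CPM in 28-month replicates 1, 2 and 3, against 133232 CPM in the 18-month library. Of 9 keratinocyte markers counted as units of their own, checked because the extraction text in the labels describes epidermal cells, 4 had no counts in any library, Krt5 among them. Their sum was 15.6, 12.8 and 18.2 CPM in the 28-month replicates, against 16.3 CPM at 18 months, of which Trp63, a transcription factor of basal epidermal cells, made up 14.5, 11.7 and 17.2 CPM at 28 months, against 15.4 CPM in the 18-month library. The chi-square over degrees of freedom between 28-month replicates 1 and 3 was 85.9, and every other pair of libraries lay between 561 and 652. Summed fibroblast markers came to 1881, 5216 and 2174 CPM in the 28-month replicates, against 2397 CPM at 18 months. Replicate 2 was thus the highest where the fibre markers were lowest. Gsn alone made up 1324, 3967 and 1480 CPM of these sums at 28 months and 1446 CPM at 18 months. Of the 11 fibroblast markers tested, 10 were highest in replicate 2. Without that library, 2 were higher and 9 lower at 28 months in estimate, with a median log2 difference of -0.55. In whole tissue, fewer cells of a type and less RNA per cell cannot be told apart.

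Between the ages, none of the 10 genes passed the test on all 4 libraries, and 28-month replicate 2 lay at an end of the range for 8 of them. It was the highest of the 4 libraries for Dcn, Lum, Ogn, Prelp and Tnmd and the lowest for Bgn, Thbs4 and Scx. Over all genes tested, replicate 2 was the highest for 32.4% and the lowest for 31.9%. The edgeR quasi-likelihood test with Benjamini-Hochberg adjustment called 0 of 15376 gene units (percent called 0), and 753 (4.9%) had an unadjusted p under 0.05, of which 1 was a member, Fmod. The DESeq2 Wald test called 31 gene units and limma voom 0, with none of the 10 genes called by either. Without 28-month replicate 2 the edgeR test called 1799 of 15133 gene units (11.9%), 7.52% higher and 4.37% lower at 28 months. In that fit 1 member rose, Scx, and 2 fell, Lum and Prelp. That fit took its spread from replicates 1 and 3 alone. With a lone 18-month library, p-values rest on the spread of the 28-month libraries, which the labels do not tie to separate animals and which may be technical.

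For 3 of the 10 genes the 18-month value was outside the 28-month range, below all of them for Fmod and Comp and above all of them for Bgn. Over all genes tested it lay outside for 51.8%, below for 25.4% and above for 26.4%. The median log2 difference, 28 minus 18 months, was 0.11 over the 10 genes and 0.06 over all genes tested. Without replicate 2 these medians were -0.11 and 0.03. The median coefficient of variation at 28 months was 36.3% over the 10 genes and 23.97% over all genes tested.

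**Figure D1:**
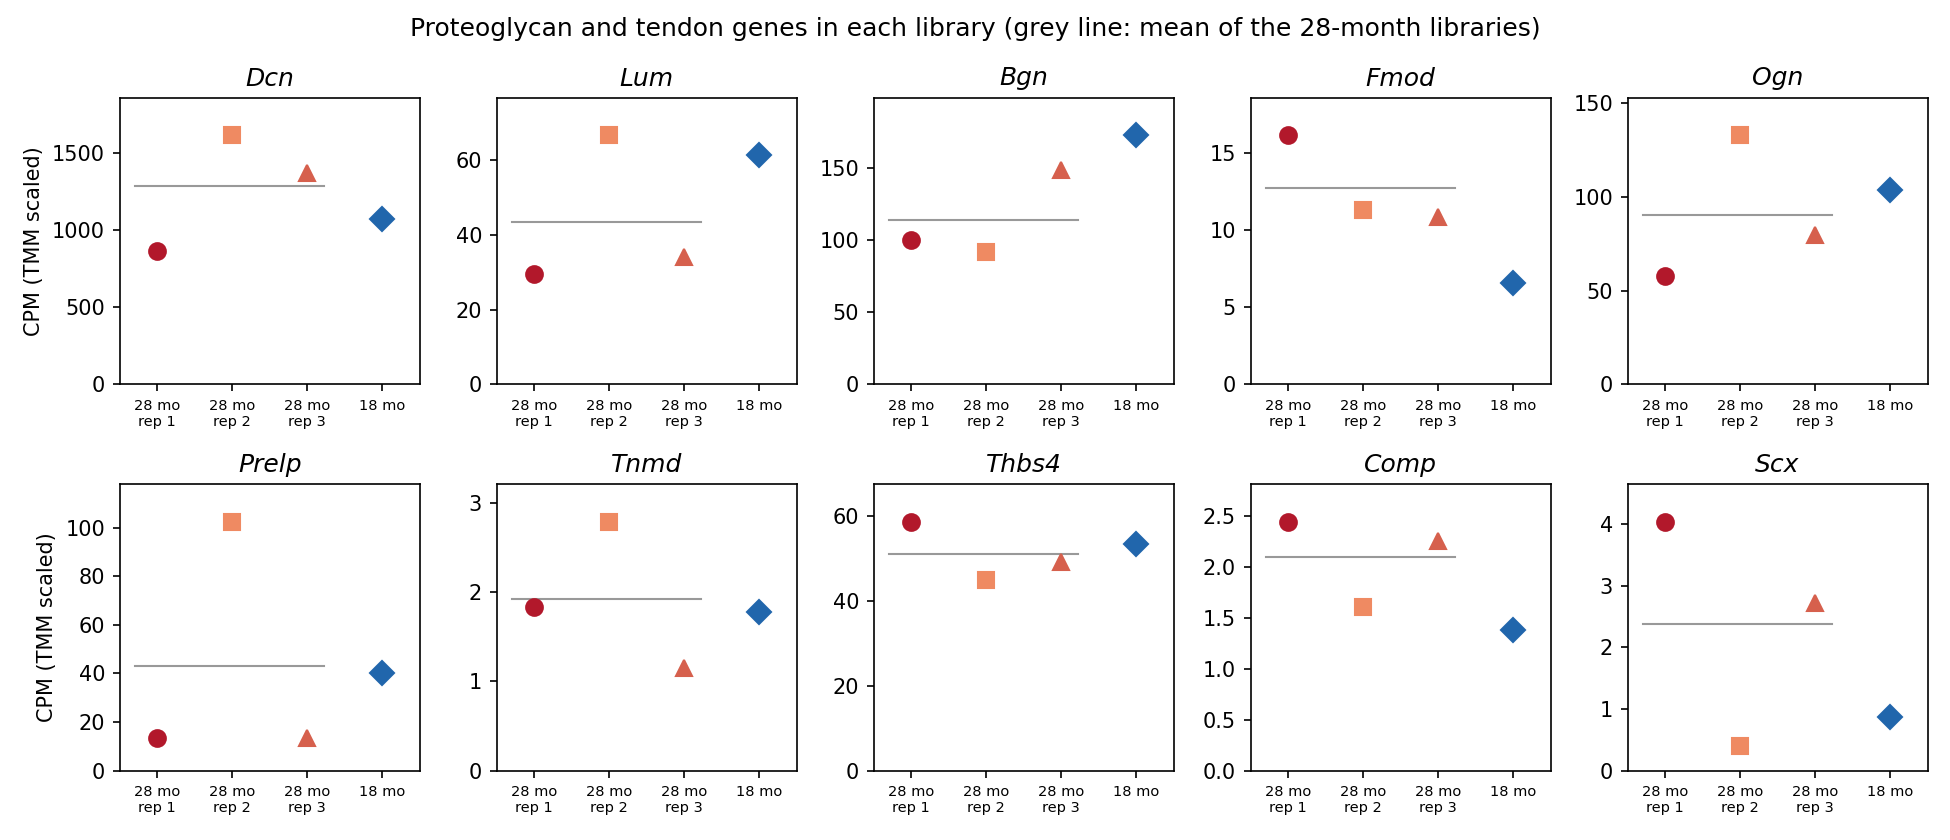
Level of each gene in CPM (vertical axis, from 0, a scale of its own in each panel) in the 3 libraries at 28 months and the library at 18 months; each point is a library and the grey line is the mean of the 28-month libraries. Prelp reached 103 CPM in 28-month replicate 2 against 13.6 and 13.5 CPM in replicates 1 and 3, while Scx was lowest in replicate 2.

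Decorin was the most abundant of the set per length. Levels were divided by the length of the principal transcript in GENCODE release M21, in CPM per kb, for comparison between genes. A fragment that spans several bins may be counted in each, which raises genes with many bins. Dcn stood at 730 ± 217 CPM per kb at 28 months (SD, n = 3) and 608 CPM per kb at 18 months. Next in the 28-month order came Bgn at 46.9 ± 12.6, Ogn at 35.1 ± 15.1, Lum at 17.8 ± 8.24, Thbs4 at 15.9 ± 2.19 and Prelp at 12.0 ± 14.2 CPM per kb. Fmod, Scx, Tnmd and Comp followed at 4.09 ± 0.942, 2.31 ± 1.78, 1.42 ± 0.611 and 0.868 ± 0.183 CPM per kb. The 28-month range of Dcn lay wholly above that of Bgn, and each later pair of neighbours overlapped in range at 28 months. The 18-month order was the same except that Tnmd (1.32 CPM per kb) stood above Scx (0.846 CPM per kb). Of the summed level per kb of the 6 proteoglycans, Dcn made up 85.3, 86.0 and 87.3% in 28-month replicates 1, 2 and 3 and 80.2% at 18 months.

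Decorin and biglycan, the closely related proteoglycans that carry chondroitin or dermatan sulfate, differed in how they were spread over the libraries. Dcn (ENSMUSG00000019929, GRCm38 chromosome 10, 97479609 to 97518143) had 867, 1613 and 1371 CPM in 28-month replicates 1, 2 and 3 and 1068 CPM at 18 months. The 18-month value lay inside the 28-month range. The log2 difference was 0.26 ± 0.49 (SE, edgeR adjusted p 0.934), and 0.09 ± 0.28 without replicate 2. Bgn (ENSMUSG00000031375, chromosome X, 73483602 to 73495933) had 100.01, 91.9 and 148 CPM at 28 months, against 172 CPM at 18 months. Every 28-month library lay below the 18-month one, and the log2 difference of -0.60 ± 0.37 missed the threshold (adjusted p 0.859). That order belongs to the sum of all Bgn bins, where the raw 18-month count (11226) exceeded the largest 28-month count (8967). On the 8 fully coding bins alone, the raw 18-month count (3491) fell inside the 28-month range (3194 to 4357). Age was not tested on the coding bins alone. The ratio of Dcn to Bgn in CPM was 8.67, 17.6 and 9.24 in the 28-month replicates and 6.20 at 18 months.

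Lumican and fibromodulin, the keratan sulfate proteoglycans that compete for the same site on collagen I, leaned in opposite directions. Lum (ENSMUSG00000036446, chromosome 10, 97565128 to 97572703) had 29.6, 66.6 and 34.2 CPM in 28-month replicates 1, 2 and 3 and 61.3 CPM at 18 months. Replicates 1 and 3 lay below the 18-month library and replicate 2 above it. Its log2 difference was -0.50 ± 0.51 on all libraries (adjusted p 0.892) and -0.92 ± 0.17 without replicate 2, where it passed the edgeR test (adjusted p 0.0278). Fmod (ENSMUSG00000041559, chromosome 1, 134037254 to 134048277) had 16.1, 11.3 and 10.8 CPM at 28 months, against 6.59 CPM at 18 months. All 3 libraries at 28 months lay above the 18-month library. Its mean was 12.8 ± 2.94 CPM at 28 months (SD, n = 3), 1.94 times the 18-month value, with a log2 difference of 0.95 ± 0.37 (SE) that missed the edgeR threshold (unadjusted p 0.0488, adjusted p 0.859). Without replicate 2 Fmod had 1.05 ± 0.27 and still missed it (adjusted p 0.0589). The ratio of Fmod to Lum in CPM was 0.545, 0.170 and 0.317 in the 28-month replicates and 0.107 at 18 months.

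Prelp, which encodes prolargin, a proteoglycan that ties collagen to heparan sulfate of basement membranes, varied most among the proteoglycans. Prelp (ENSMUSG00000041577, chromosome 1, 133910304 to 133921414) had 13.6, 103 and 13.5 CPM in 28-month replicates 1, 2 and 3 and 40.0 CPM at 18 months. Replicate 2 was 7.57 times the mean of the other two, and the 18-month library stood between them. The coefficient of variation at 28 months, 119%, was larger than that of 98.5% of the genes tested. Its log2 difference was 0.11 ± 1.28 on all 4 libraries (adjusted p 0.988). Without replicate 2 it was -1.54 ± 0.15, past the edgeR threshold (adjusted p 0.0151), so its direction in edgeR changed without that library. By limma voom on all 4 libraries the log2 difference was also negative, at -0.58.

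Ogn, which encodes osteoglycin (mimecan), was also highest in 28-month replicate 2, with a smaller range. Ogn (ENSMUSG00000021390, chromosome 13, 49608046 to 49624501) had 57.6, 133 and 79.8 CPM in 28-month replicates 1, 2 and 3 and 103 CPM at 18 months. The 18-month value lay below replicate 2 and above the others. The log2 difference was -0.20 ± 0.50 (adjusted p 0.951) and without replicate 2 it was -0.57 ± 0.22 (edgeR adjusted p 0.141). Of all pairs within the set, Lum and Ogn had the closest profiles over the 4 libraries, at a Euclidean distance of 0.33 between their log2 CPM centred on the mean of each gene, and Prelp and Scx the most distant, at 5.03.

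**Figure D2:**
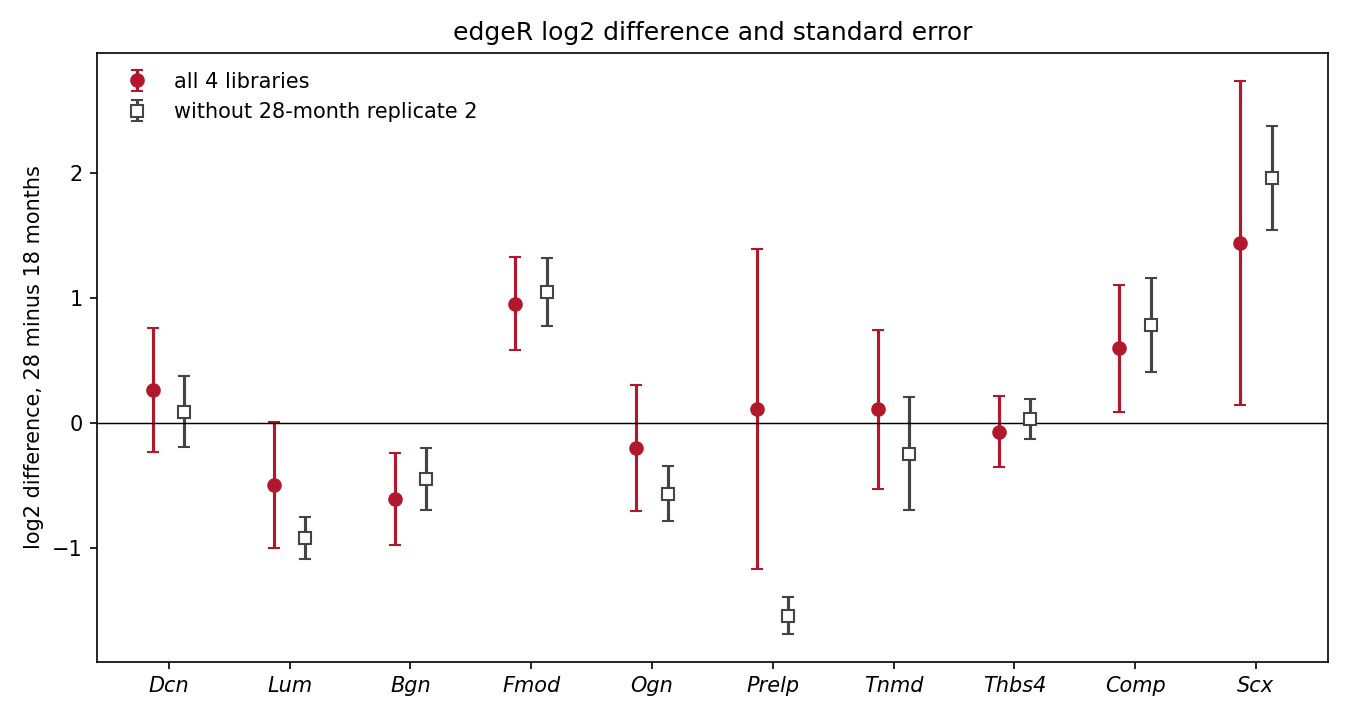
Log2 difference, 28 minus 18 months, of each gene by edgeR (points) with its standard error (bars), on all 4 libraries (filled circles) and without 28-month replicate 2 (open squares). Prelp had 0.11 on all libraries and -1.54 without that library, and Fmod had 0.95 and 1.05.

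Scleraxis, the transcription factor of tendon cells, had the largest ratio of highest to lowest library at 28 months in the set. Scx (ENSMUSG00000034161, chromosome 15, 76457452 to 76459458) had 4.04, 0.400 and 2.72 CPM in 28-month replicates 1, 2 and 3 and 0.875 CPM at 18 months, from 270, 39, 164 and 57 counts. Replicate 2 lay below the 18-month library and the other two above it. The log2 difference was 1.44 ± 1.30 (adjusted p 0.885), and without replicate 2 it was 1.96 ± 0.42, past the edgeR threshold (adjusted p 0.0377). Scx lies within an intron of Bop1, a ribosome assembly gene on the opposite strand. Bop1 had 37.4, 17.6 and 34.1 CPM at 28 months, against 17.0 CPM at 18 months, and without replicate 2 it also rose (log2 difference 1.09 ± 0.16, adjusted p 0.0191). The strand setting of the counting is not given in the sources used here, so reads of Scx and of this Bop1 intron cannot be told apart.

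Tenomodulin, a membrane protein of tendon cells used as their mature marker, ordered the libraries differently from Scx. Tnmd (ENSMUSG00000031250, chromosome X, 133850980 to 133865577) had 1.83, 2.79 and 1.14 CPM in 28-month replicates 1, 2 and 3 and 1.78 CPM at 18 months. The 18-month value lay inside the range, with a log2 difference of 0.11 ± 0.63 (adjusted p 0.978). The ratio of Scx to Tnmd in CPM was 2.21, 0.143 and 2.38 in the 28-month replicates and 0.491 at 18 months. At these levels Tnmd rested on 122, 272 and 69 counts at 28 months and 116 at 18 months.

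Thbs4 and Comp, the thrombospondins of the set, pentameric matrix proteins that bind collagen, had the smallest coefficients of variation of the set at 28 months. Thbs4 (ENSMUSG00000021702, chromosome 13, 92751590 to 92794818), a protein of tendon and of the muscle attachment, had 58.6, 45.0 and 49.2 CPM in 28-month replicates 1, 2 and 3 and 53.4 CPM at 18 months. Its coefficient of variation at 28 months, 13.8%, was larger than that of 25.9% of the genes tested. The log2 difference was -0.07 ± 0.28 (adjusted p 0.972). Comp (ENSMUSG00000031849, chromosome 8, 70373558 to 70382066), the cartilage oligomeric matrix protein gene, had 2.44, 1.60 and 2.25 CPM at 28 months, against 1.38 CPM at 18 months. All 28-month values lay above the 18-month value, and the log2 difference of 0.60 ± 0.51 missed the threshold (adjusted p 0.877). The other thrombospondin genes, Thbs1, Thbs2 and Thbs3, were each highest in 28-month replicate 2, and 0 of the 3 passed in either edgeR fit. Thbs1 had 9.73, 90.8 and 16.9 CPM at 28 months, against 31.3 CPM at 18 months.

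The other genes of the pathway were taken from lists of related proteins. None of their members passed the edgeR test on all 4 libraries. Of 9 other small leucine-rich proteoglycans and relatives tested, 6 were higher and 3 lower at 28 months in estimate, with a median log2 difference of 0.22. Aspn, which encodes asporin, had 14.5, 36.15 and 18.7 CPM in 28-month replicates 1, 2 and 3 and 25.7 CPM at 18 months. Without replicate 2, 0 of the 8 still tested passed, and their median was -0.14.

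The collagens that these proteoglycans bind were high in replicate 2. It was the highest library for 8 of the 9 collagen genes, and without it 5 of the 9 fell, against 4.37% of all genes tested, with a median log2 difference of -1.22. Col1a2, a chain of collagen I, had 28.7, 284 and 43.3 CPM in 28-month replicates 1, 2 and 3 and 85.4 CPM at 18 months. The summed fibroblast markers given above had the same order of libraries.

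Of 14 other tendon factors and tendon matrix genes tested, 8 were higher and 6 lower at 28 months in estimate on all libraries. Without replicate 2, 3 of the 13 still tested fell and 0 rose, where 4.37% of all genes tested fell and 7.52% rose. Egr1, an early response transcription factor that also acts in tendon, had 5.79, 74.5 and 5.50 CPM in 28-month replicates 1, 2 and 3 and 12.8 CPM at 18 months, and was among those that fell in that fit (log2 difference -1.16, adjusted p 0.0229). Of 13 proteases and their inhibitors, 2 fell without replicate 2, Adamts5, which cleaves proteoglycans, and the inhibitor Timp3, with log2 differences of -1.60 and -0.72, where 4.37% of all genes tested fell. Of 17 TGF-beta genes, 2 rose without replicate 2, Ltbp2 and Ltbp3, which encode proteins of the TGF-beta binding family, with log2 differences of 1.65 and 0.73, where 7.52% of all genes tested rose. Of 20 enzymes that build the sulfated sugar chains, 8 were higher and 12 lower at 28 months on all libraries, and 0 passed with or without replicate 2. Of 8 receptors described for decorin, biglycan or lumican, 0 passed in either fit.

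Markers of other cell types differed in their order of libraries, as the proteoglycans did among themselves. Summed macrophage markers were 128, 249 and 247 CPM in 28-month replicates 1, 2 and 3 and 89.1 CPM at 18 months, with all 10 higher at 28 months in estimate. Summed Schwann cell markers were 202, 106 and 164 CPM at 28 months, against 356 CPM at 18 months, with all 12 lower in estimate. Summed endothelial markers were 204, 396 and 246 CPM at 28 months, against 267 CPM at 18 months. Summed red cell markers were 378, 145 and 3798 CPM at 28 months, against 183 CPM at 18 months, so here replicate 3 stood apart. Summed adipocyte markers were 5066, 5286 and 4379 CPM at 28 months, against 3803 CPM at 18 months. Summed cartilage and bone markers were 6.42, 10.8 and 4.90 CPM at 28 months, against 7.55 CPM at 18 months, of which Alpl, an alkaline phosphatase gene, made up 5.42, 9.29 and 4.07 CPM at 28 months, against 5.90 CPM in the 18-month library. Of those 10 markers 2 had no counts in any library, Acan and Matn1. The part of any of these cell types in the differences of Dcn, Lum, Ogn, Prelp and Scx between libraries was not tested.

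**Figure D3:**
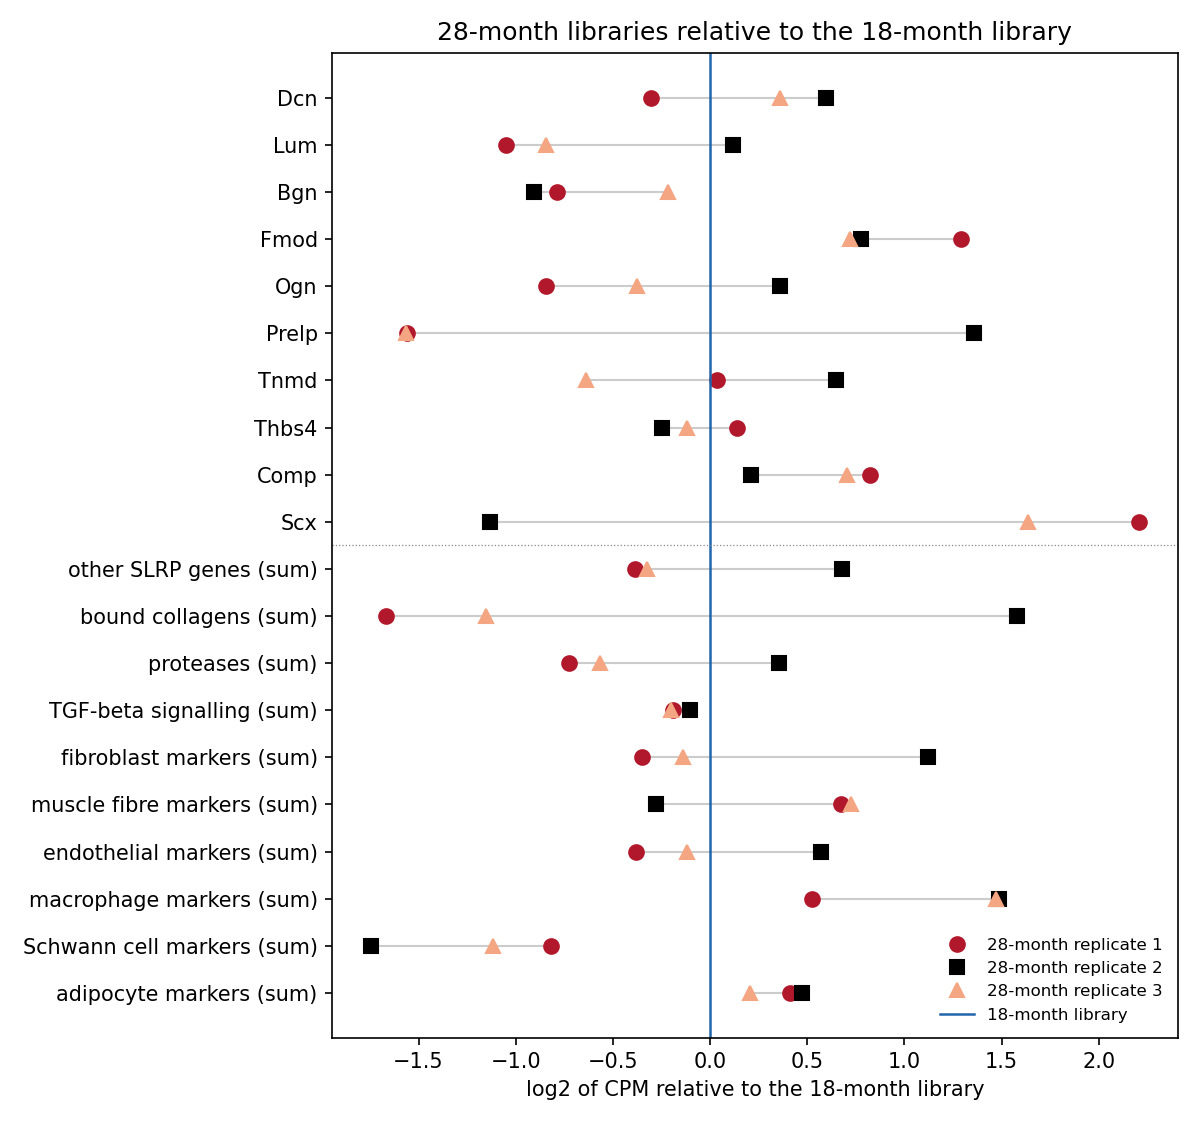
Each 28-month library relative to the 18-month library (vertical line at 0) on a log2 scale of CPM, for the 10 genes (upper rows) and for summed gene lists (lower rows); each symbol is a library. 28-month replicate 2 (black squares) stood to the right of the other 28-month libraries for Prelp, the bound collagens and the fibroblast markers, and to the left for Scx, the muscle fibre markers and the Schwann cell markers.

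Exon usage, the purpose of the sequencing, was not called in any of the 10 genes. Usage of each bin relative to its gene was tested with edgeR diffSpliceDGE, and 389 of 11000 genes (3.54%) passed at a Benjamini-Hochberg adjusted Simes p under 0.05. The smallest adjusted bin p in the set was that of Thbs4 bin 19 at 0.644 (unadjusted 0.0133). This bin, 52 bases of coding exon toward the 5′ end (chromosome 13, 92775117 to 92775168, where the file's 24 bins match the 24 of release M21 in number), held 65, 44 and 33 counts at 28 months and 12 at 18 months. It made up 1.26 ± 0.352% of Thbs4 counts at 28 months (SD, n = 3), against 0.345% at 18 months (exact 95% interval 0.179 to 0.602). Without 28-month replicate 2 the edgeR Simes test passed for Thbs4 (adjusted p 0.0202) and Lum (adjusted p 0.0271), 2 of the 10 genes, where it passed for 30.5% of all genes tested. Bin 1 of Lum, in the 5′ untranslated region, made up 7.94 ± 0.763% at 28 months (SD, n = 3), against 3.56% at 18 months (exact 95% interval 3.00 to 4.18).

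Within these genes the counts at 18 months lay nearer to the 3′ end. The share of a gene's counts in its 3′-most bin was higher at 18 months than in every 28-month library for 8 of the 10 genes, lower for Tnmd and inside the range for Bgn. The same held for 72.8% of 10729 genes with a mean count of at least 100, and the reverse for 2.68%, so the set did as most genes did. The median share over those genes was 13.02, 11.9 and 12.7% in 28-month replicates 1, 2 and 3 and 19.9% at 18 months. The bins of Dcn, Comp and Scx differ in number from release M21, so only their order is used. In Dcn the share was 26.0 ± 1.68% at 28 months (SD, n = 3) and 35.5% at 18 months (exact 95% interval 35.1 to 35.8). In Ogn it was 46.6 ± 2.83% at 28 months and 59.6% at 18 months (58.4 to 60.8), and in Fmod 62.6 ± 2.34% at 28 months and 74.1% at 18 months (69.7 to 78.2). In Comp and Scx the 18-month shares rested on 13 and 44 counts, with exact intervals of 7.92 to 23.4% and 64.2 to 87.3%. Those intervals covered the highest 28-month shares of these genes, 8.82 and 69.2%.

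The 3′-most bin of Bgn is only 4 bases long, so the 7 bins that lie wholly in its 3′ untranslated region were also summed. They held 35.1 ± 1.198% of Bgn counts at 28 months, against 53.2% at 18 months (exact 95% interval 52.3 to 54.2), while the 8 fully coding bins held 47.7 ± 0.974% at 28 months and 31.1% at 18 months (30.2 to 32.0). Tnmd went the other way, with 14.8 ± 1.68% of its counts in the last bin at 28 months and 7.76% at 18 months, from 9 counts (exact interval 3.61 to 14.2). That interval covered the lowest 28-month share of Tnmd, 12.9% in replicate 2. In Thbs4, 28-month replicate 2 resembled the 18-month library: the 3 bins at the 3′ end held 43.2, 58.1 and 40.9% of the counts of 28-month replicates 1, 2 and 3, while the 18-month library held 62.4% there. Exact intervals cover counting error only, and fragments counted in several bins make them too narrow. The part of this 3′ difference in the gene and bin differences above was not tested. With the most abundant bin of each gene in place of the sum, Fmod had a log2 difference of 1.13 and Bgn -0.82, and 0 of the 10 genes passed. That bin was the 3′-most bin of Fmod and a 3′ untranslated bin of Bgn. For these genes the setting therefore carries the 3′ difference and is no check on it.

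**Figure D4:**
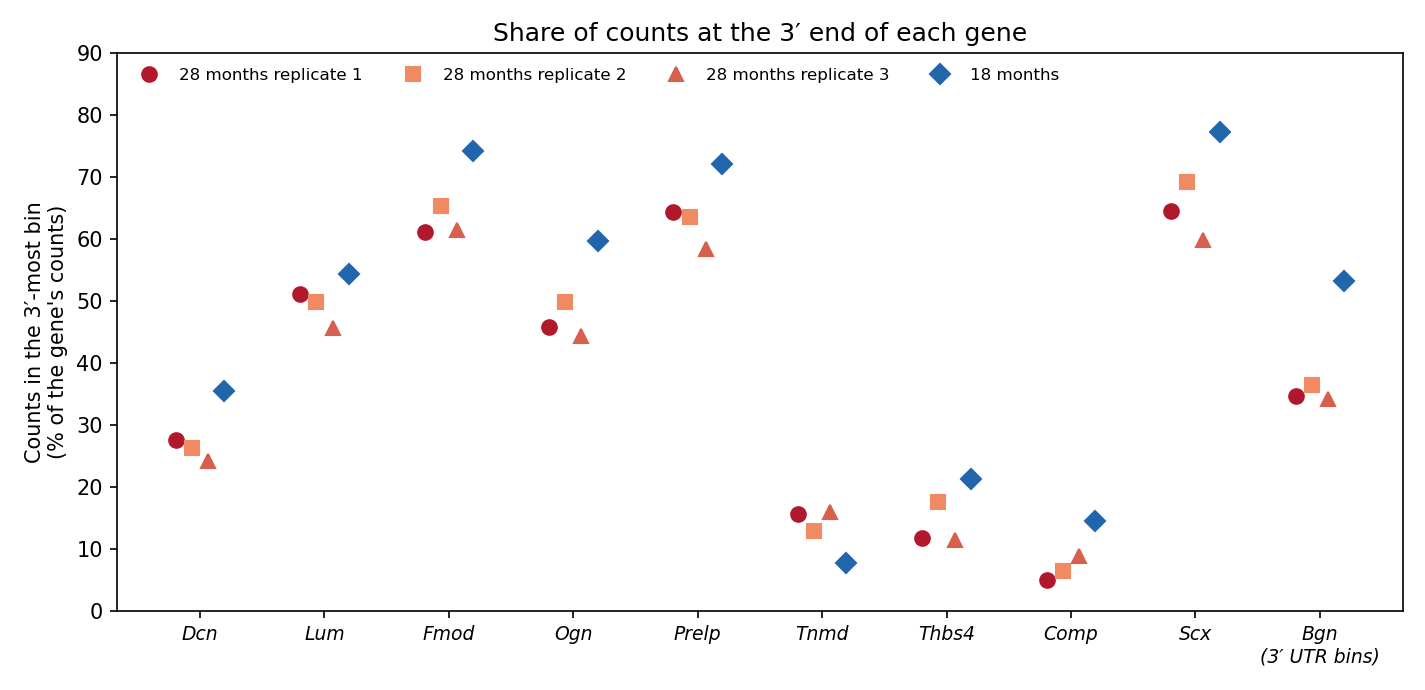
Share of each gene's counts in its 3′-most bin, in percent, in the 3 libraries at 28 months and the library at 18 months; for Bgn the bins wholly in the 3′ untranslated region are summed. The 18-month library is the highest for every gene shown except Tnmd.

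**Figure D5:**
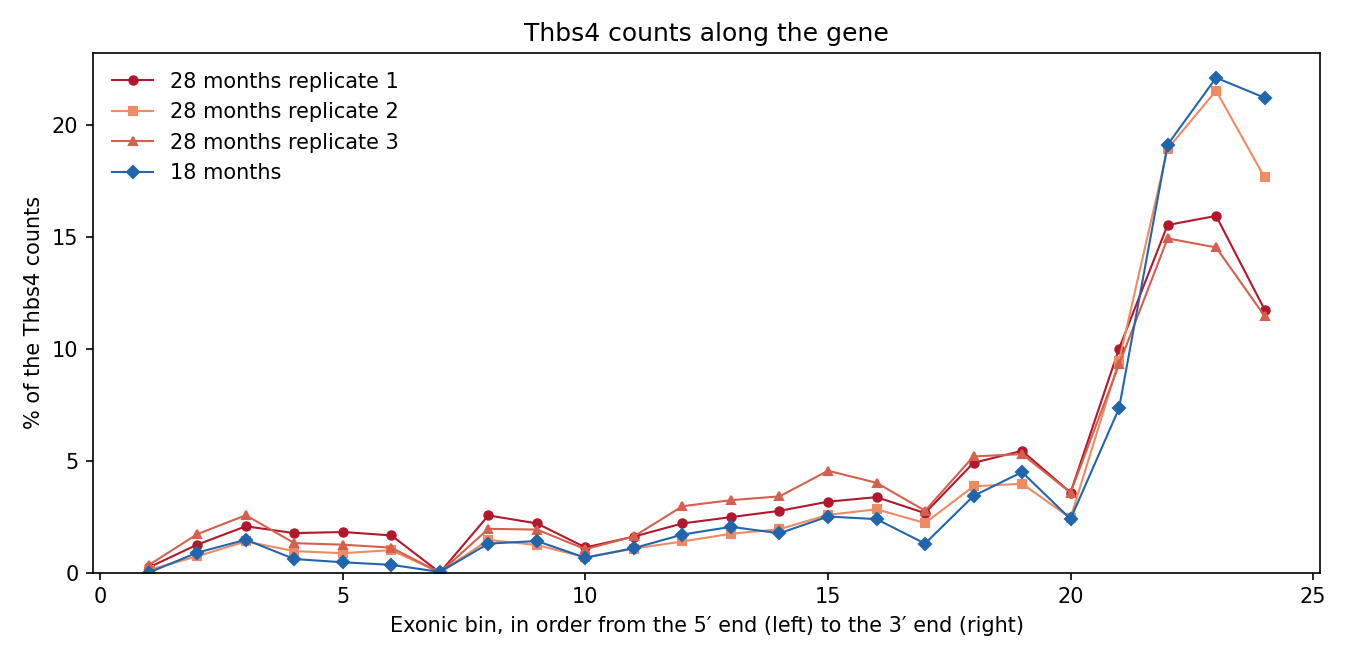
Share of Thbs4 counts in each exonic bin, in percent, in order from the 5′ end to the 3′ end (the bin numbers of the file, used in the text, run the opposite way), 1 line per library. The last 3 bins hold 43.2, 58.1 and 40.9% in 28-month replicates 1, 2 and 3 and 62.4% at 18 months.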

How the data were processed

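Each library has its own table, in which the authors deposited raw, whole-number counts for exonic bins. Per the submitters' processing notes, bcl2fastq 1.8.3 and TopHat2 2.0.4 were used with build GRCm38. How reads were counted, with which annotation and strand setting, is not given in the sources used here. Left out were the 5 closing entries that name no gene, 3.36 to 4.56% of all entries at 28 months and 5.20% at 18 months. The 374286 bins were summed per gene unit (949 units join several genes), and 38240 of 39188 single gene IDs had a symbol.

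Units with a mean of at least 10 counts entered a quasi-likelihood fit in edgeR with TMM scaling (factors 0.877, 1.28 and 0.897 at 28 months and 0.990 at 18 months), 28 against 18 months, with 2 residual degrees of freedom. Standard errors were derived from the log2 difference and the F statistic. Bin usage was tested with diffSpliceDGE. Calls needed a Benjamini-Hochberg adjusted p under 0.05. Listed counts of "higher" and "lower" are signs of estimates. Alternatives were other scalings, filters and tests, the most abundant bin per gene, and leaving out each 28-month library. The scripts were tested on simulated data. No pair of libraries agreed within sampling noise.

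All 10 members and up to 4 genes of each other list, by the largest log2 difference at a mean of at least 1 CPM, could be named. Krt5, Acan, Matn1 and Bop1 were named after their values were seen. The members and lists were chosen with earlier results of these data known. The tests ran in edgeR 4.0.16, DESeq2 1.42.0 and limma 3.58.1 under R 4.3.3, and summaries and plots in Python 3.11.15 with numpy 2.4.6, pandas 2.3.3 and matplotlib 3.10.9.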

Additional observations from a re-analysis of the deposited data

How the results depend on the processing

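No paired analysis was possible because the 18-month group has a single library. The count of gene units past the threshold, 0 in the edgeR fit on all libraries, was 31 by the DESeq2 Wald test, and 0 to 1799 when each 28-month library was left out in turn (0 without replicate 1, 1799 without replicate 2 and 1 without replicate 3). The count of genes with altered exon usage, 389, was 206 without first and last bins, 1765 by limma diffSplice, and 171 to 3250 when each 28-month library was left out (236, 3250 and 171 without replicates 1, 2 and 3). Of the 10 genes, Dcn, Lum, Bgn, Fmod, Comp and Scx kept the direction of their log2 difference under all 10 alternatives tried, Fmod between 0.75 and 1.13. Prelp reversed by limma voom, at -0.58, and ran from -1.54 to 0.54 over the fits that left out a library. Thbs4 reversed with the most abundant bin in place of the sum, at 0.000246, and ran from -0.18 to 0.034 (positive without replicate 2). Ogn ran from -0.57 to 0.040 (positive without replicate 1) and Tnmd from -0.24 (without replicate 2) to 0.38 over the fits that left out a library. The cause of these changes was not tested. The whole 3′ share analysis, with the summed bins of Thbs4 and the alternatives, was unplanned and chosen after seeing the data. The 3′ share was higher at 18 months for 7 of 9, 8 of 10 and 9 of 10 members without replicates 1, 2 and 3 (75.2, 75.6 and 75.0% of all genes), and for 6 of 7 with a mean count of at least 500 (77.1% of all genes). Scx is under the minimum mean count without replicate 1. Comp, Tnmd and Scx had the fewest counts of the set, which limits what could be detected.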

Other observations

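The Bgn bins and the neighbours of single genes given here were chosen after the data were seen. In Bgn, 5 bins that are annotated as noncoding exon lie between coding bins. Together they held 2, 16 and 7 counts in 28-month replicates 1, 2 and 3 and 64 counts at 18 months. They made up 0.0955 ± 0.0757% of Bgn counts at 28 months (SD, n = 3) and 0.570% at 18 months (exact 95% interval 0.439 to 0.727). Of these, bin 18 alone held 2, 11 and 7 counts at 28 months and 8 counts at 18 months. The bin with the most counts at 18 months, bin 9 (GRCm38 chromosome X, 73491031 to 73491317), had 29 counts there and 0 in every 28-month library.

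The mean profile of the 10 genes over the 4 libraries was nearly flat, with Prelp and Scx running in opposite directions. The 6 genes nearest to it by Euclidean distance of centred log2 CPM, among 11020 candidates, were Snx25, Cbll1, Tbc1d23, Itch, Tmem33 and Hp1bp3, at distances of 0.0218 to 0.0433. The 10 genes themselves lay further from that mean profile, from 0.42 for Thbs4 to 2.76 for Scx. The 6 nearest genes therefore do not stand for any member. Nearest to Ogn alone were Ccdc149 and P3h3, at 0.0451 and 0.0535. These distances rest on 4 libraries.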
